A study of Mus musculus with 6 samples.

Results

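Ribosomal proteins are the protein parts of the ribosome, the particle that translates messenger RNA. Those whose names begin with Rps belong to the small subunit, which reads the message, and those beginning with Rpl to the large subunit, which joins the amino acids. Rplp0 forms the base of the stalk, the arm of the large subunit that binds elongation factors. Their messenger RNAs are among the most abundant in growing cells and typically begin with a C followed by a run of pyrimidines (C and T), the terminal oligopyrimidine or TOP sequence, through which growth signals regulate their translation. Snhg5 is a transcript of the same growth-regulated kind that codes for no known protein. Its introns carry small nucleolar RNAs, which guide the chemical modification of ribosomal RNA. At postnatal day 11 the mouse cerebellum still holds dividing granule cell progenitors, a population with a high demand for new ribosomes.

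The members were the probe sets of the Affymetrix U74Av2 array with a single gene symbol that begins with Rpl, Rps or Rplp and a digit, leaving out the Rps6k kinases, together with Snhg5. The rule found 49 probe sets for 35 genes, out of 12422 probe sets and 8251 genes with a single symbol. Of these 35 genes, 34 had a ribosomal protein symbol: 15 small subunit genes, 14 large subunit genes, Rplp0 and the 4 related genes Rpl39l, Rpl7l1, Rps27l and Rps4l. Ribosomal protein genes were taken by name. Snhg5 was chosen by its difference between the genotypes in these same arrays, so that difference is described here without a test and supports nothing. For summaries each gene was represented by the probe set with the highest mean over the 6 arrays. Rpl10, Rpl36a, Rplp1, Rplp2 and Rpl3 were not analysed here, because no probe set with a single symbol matched them.

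RNA came from the cerebellum of 3 male mice lacking L1cam (genotype -/Y, strain 129S2/SvPasCrlf) and 3 wild type mice of the same strain, whose sex is not given in the labels, all at postnatal day 11. L1cam is an X-linked adhesion molecule of growing axons, and the labels name neither the allele nor a Cre line. They number the arrays as replicates without saying that each came from a separate mouse, so p-values measure the spread between these samples, which may be technical. All values are log2 expression values that the authors made with RMA, a method that subtracts background, brings the arrays to a common distribution and combines the probes of a probe set. A difference of 1 is a factor of 2 in signal. The level of a probe set also depends on its probes, so levels of different probe sets are not compared as amounts of RNA. In bulk tissue, fewer cells of a type and less RNA per cell cannot be told apart.

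Array medians ran from 8.87 to 8.94 and the pairwise correlations from 0.9948 to 0.9974. The L1cam probe set read 8.66 ± 0.16 (SD, n = 3) in wild type and 8.06 ± 0.17 (SD, n = 3) in the knockouts, a difference of -0.60 (limma adjusted p = 0.841), with an exact 2-sided permutation p of 0.1, below which 3 arrays against 3 cannot go. Knockout 1 stood apart from the other 5 arrays in several respects. The control probe set at the 3' end of Gapdh exceeded that at its 5' end by 0.67, against -0.048 to 0.13 elsewhere; this gap widens when RNA is degraded. The Y-linked transcripts Eif2s3y and Uty read 7.11 and 6.67 in this array, which the labels call male, against at least 8.59 and 7.32 in the others. Results that rest on it are therefore given with and without it. Of 16 listed markers of cerebellar neurons 14 were measured, none below percentile 45.5 of mean signal; 3 of the 14 were higher in the knockouts (median difference -0.042). At an unadjusted p under 0.05 in limma 3 were lower and none higher, against 2.53% and 2.69% of all genes. The 3 were Gria2 (-0.366), En2 (-0.183) and Atoh1 (-0.134), and none of them passed after adjustment. The markers that define the tissue included Zic1, a transcription factor of granule cells, at 14.01 in wild type and 14.03 in the knockouts, and the Purkinje cell gene Pcp2 at 13.10 and 13.06.

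The sequences around the annotated starts of several members are shown because the pyrimidine run at the start is what ribosomal protein messages share in the textbook account, and the member rule did not use it. Promoter sequences from RefSeq (build GRCm38.p6) were found for 28 of the 35 genes. Each window runs 5′ to 3′ on the gene's strand from 10 bases before the annotated start to 20 bases from it, so that base 11 of the line is the first transcribed base. Capitals in the first 5 lines mark the run of C and T that begins with a C at the start itself, and in the other lines the longest such run in the window.
Rps10 (chr17:27635225-27635254, minus strand): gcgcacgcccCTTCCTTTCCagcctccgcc
Rps18 (chr17:33955646-33955675, minus strand): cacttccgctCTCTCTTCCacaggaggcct
Rps27 (chr3:90213629-90213658, minus strand): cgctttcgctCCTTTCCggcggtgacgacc
Rpl38 (chr11:114668570-114668599, plus strand): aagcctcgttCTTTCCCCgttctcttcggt
Rpl35a (chr16:33056472-33056501, plus strand): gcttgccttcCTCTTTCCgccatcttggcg
Rpl7a (chr2:26910797-26910826, plus strand): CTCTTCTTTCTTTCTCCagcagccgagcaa
Rpl13a (chr7:45128726-45128755, minus strand): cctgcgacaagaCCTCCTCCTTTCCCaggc
Rplp0 (chr5:115559457-115559486, plus strand): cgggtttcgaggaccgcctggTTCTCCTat
Snhg5 (chr9:88522878-88522907, minus strand): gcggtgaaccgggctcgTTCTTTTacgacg

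In Rps10 the run from the start was 10 bases long, in Rps18 it was 9, in Rpl38 and Rpl35a 8 and in Rps27 7. A C at an annotated start followed by pyrimidines to a run of at least 5 was present in 5 of the 28 genes (17.9%), against 3.01% of all 27025 genes with a promoter sequence. A pyrimidine run of at least 8 anywhere in the 30-base window was present in 10 of the 28 (35.7%), against 13% of all genes. In Rpl7a the run of 17 spanned the annotated start. The Snhg5 window holds a run of 7 that begins 8 bases into the transcript. Such a match describes the letters at an annotated start, which need not be the start used in the cerebellum.

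The Snhg5 probe set read 7.39, 7.62 and 7.30 in wild type and 7.93, 8.03 and 7.82 in the knockouts. All 3 knockout arrays lay above all 3 wild type arrays, and the lowest knockout was 0.19 above the highest wild type array. The means were 7.44 ± 0.17 (SD, n = 3) in wild type and 7.92 ± 0.11 (SD, n = 3) in the knockouts, a difference of 0.49 (SE 0.09) or 1.40-fold. Its highest array was knockout 2, and without knockout 1 the difference was 0.49 (SE 0.11). The signal lay at percentile 26.6 of mean signal over all probe sets.

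Among the ribosomal protein genes, taken by name, the knockout mean was above the wild type mean in 23 of the 34 genes and below it in 11, by -0.15 to 0.215, and the median difference was 0.051, or 1.04-fold. Over all 35 members, Snhg5 included, the median was 0.052, and 0.018 without knockout 1. Over all 8251 genes the median was -0.022 and 38.3% had a higher knockout mean. At an adjusted p of 0.05 limma called no probe set, neither among the 49 members nor among all 12422 (0% called). At an unadjusted p under 0.05 in limma there were 5 of the 49 member probe sets, of which Snhg5, chosen for its difference, was 1, against 5.08% of all probe sets. Of the 5, 3 were higher in the knockouts, Snhg5, Rps3 and Rplp0. The 2 lower ones were the dimmer probe sets of Rpl38 (-0.186) and Rps29 (-0.171), which do not enter the counts per gene. That of Rpl38 read 6.08, at percentile 4.9 of mean signal, where a probe set may report little of its message. Counted per gene, 2 of the 34 ribosomal protein genes were at that level with a higher knockout mean, Rps3 and Rplp0, and none with a lower one, against 2.69% and 2.53% of all genes. For a typical probe set of the array the 95% interval of a difference reached 0.158 to either side. The ribosomal protein genes spread more: their median SD within groups was 0.105, against 0.085 over all genes.

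**Figure D1:**
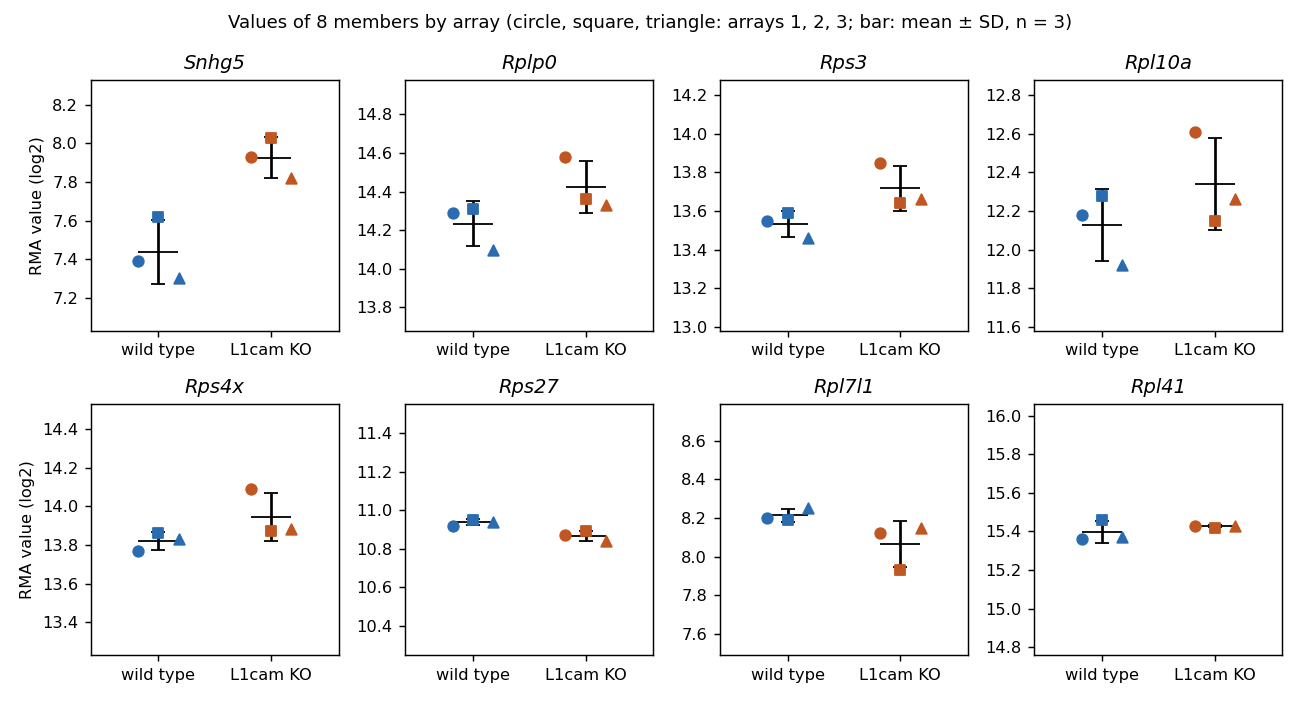
RMA log2 values of 8 members in each of the 6 arrays, with wild type in blue, L1cam knockout in orange, a separate vertical scale of equal span for each gene, and bars for the mean ± SD of 3 arrays. Snhg5, chosen for its difference, reads 7.44 against 7.92, and in Rplp0, Rps3, Rpl10a and Rps4x the highest point is knockout 1.

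The size and sign of the difference varied with the signal of the probe set. Of the 34 ribosomal protein genes, 18 lay above the 90th percentile of mean signal over all probe sets, at 11.17 (a division made after seeing the data), and 13 of these were in the top percentile. The nearest genes on either side of that level were Rps19 at 11.75 and Rps27 at 10.90. Among these 18 bright genes, 17 had a higher knockout mean, with a median of 0.135 or 1.10-fold and 1, Rpl37a, was level. Of all 996 genes above that level 57.4% were higher, and the 978 that were no members had a median of 0.016. The median SD within groups was 0.129 in the 18 genes and 0.091 in the 978. In the top percentile all 13 ribosomal protein genes were higher (median 0.130), against 64.2% of the 67 other genes there (median 0.024). Among the 16 ribosomal protein genes below the 90th percentile, 6 had a higher and 10 a lower mean in the knockouts (median -0.025). The 7238 other genes below it had a median of -0.026. The bright genes comprised 8 of the 14 large subunit genes, 9 of the 15 small subunit genes and Rplp0, and none of the 4 related genes. The bright genes' median was 0.026, with 13 of 18 higher, when the Gapdh 3' minus 5' difference was a covariate, and 0.076, with 16 of 18 higher, after a further quantile normalization. With array weights it was 0.223, with 18 of 18 higher. These weights were largest for wild type 3 (1.61) and knockout 1 (1.57), against 0.606 to 1.01 for the other arrays. After cyclic loess the bright genes' median was 0.109 with 14 higher, and after median centring 0.166 with 18 higher. The large subunit had a median difference of 0.041 and the small subunit of 0.051.

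**Figure D2:**
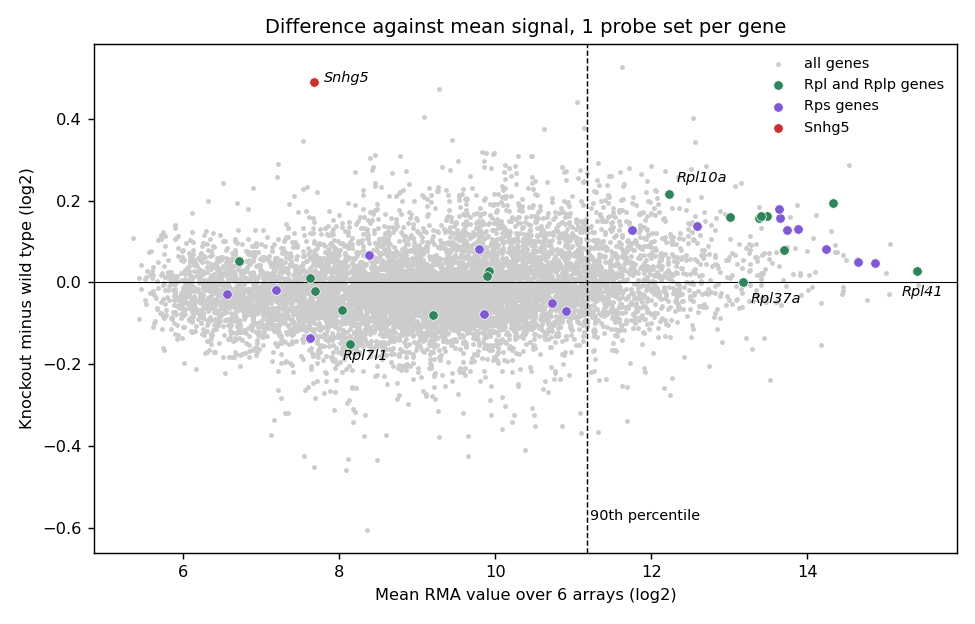
Knockout minus wild type difference (log2) against the mean RMA value of 6 arrays (log2), 1 probe set per gene, with all 8251 genes in grey, large subunit and stalk genes in green, small subunit genes in purple and Snhg5 in red. Right of the dashed line at 11.17, 17 of the 18 ribosomal protein genes lie above 0, and left of it the 16 others scatter from -0.15 to 0.08.

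Rplp0, the stalk base, which is widely used as a reference gene, read 14.29, 14.31 and 14.10 in wild type and 14.58, 14.36 and 14.33 in the knockouts. The groups did not overlap, but the lowest knockout stood only 0.02 above the highest wild type array. The difference was 0.19 (SE 0.09), and 0.11 without knockout 1.

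Among the bright small subunit proteins, Rps3, which lies where messenger RNA enters the ribosome and also acts in DNA repair, read 13.55, 13.59 and 13.46 in wild type and 13.85, 13.64 and 13.66 in the knockouts. The groups did not overlap, and the difference was 0.18 (SE 0.07), or 0.11 without knockout 1. Rps4x, encoded like L1cam on the X chromosome, read 13.77, 13.86 and 13.83 against 14.09, 13.87 and 13.88. Its groups were separated by 0.01 between the nearest arrays, the difference was 0.13, and without knockout 1 it was 0.058. Rps18 read 13.66, 13.71 and 13.35 in wild type and 13.95, 13.61 and 13.64 in the knockouts, a difference of 0.16 (SE 0.11) that was 0.049 without knockout 1. Here the groups overlapped, with wild type 3 lowest and knockout 1 highest. Rps19, the gene most often mutated in Diamond-Blackfan anaemia and named here after its values were seen, read 11.69 ± 0.11 (SD, n = 3) in wild type and 11.82 ± 0.21 (SD, n = 3) in the knockouts, and its difference fell from 0.13 to 0.017 without knockout 1.

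Of the 8 bright large subunit genes, Rpl41 was the only one in which knockout 1 was not the highest array. Rpl10a, the protein that carries the tag in methods that purify ribosomes from chosen cell types, had the largest difference of the ribosomal protein genes. It read 12.18, 12.28 and 11.92 in wild type and 12.61, 12.15 and 12.26 in the knockouts, so the groups overlapped. The difference was 0.215 (SE 0.124), and 0.079 without knockout 1. Rpl6, Rpl7, Rpl7a and Rpl19, structural proteins of the large subunit, differed by 0.162, 0.163, 0.159 and 0.157, and without knockout 1 by 0.067, 0.059, 0.069 and 0.060. In Rpl7a, wild type read 12.95, 12.94 and 12.90, and the knockouts 13.27, 12.93 and 13.08. Knockout 2 fell within the wild type values there.

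Bright genes with little difference were Rpl37a, Rpl41, Rps24 and Rps28. Rpl37a, a zinc-binding protein also picked out after its values were seen, read 13.17 ± 0.12 (SD, n = 3) in wild type and 13.17 ± 0.15 (SD, n = 3) in the knockouts (95% interval of the difference -0.198 to 0.197). Rpl41, the smallest ribosomal protein, read from 15.36 to 15.46 in all arrays, within 0.115 of the highest value on any array, 15.47, and differed by 0.028. RMA gives every array nearly the same top value, which limits how far so bright a probe set can move. Rps24 differed by 0.051 and Rps28 by 0.048 at their brightest probe sets, and after cyclic loess Rpl41, Rps24 and Rps28 turned to -0.043, -0.009 and -0.015.

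Below the 90th percentile, Rps27 and Rpl7l1 had 3 knockout values that all lay under the lowest wild type value. Rps27, a zinc finger protein of the small subunit, read 10.92, 10.95 and 10.94 in wild type and 10.87, 10.89 and 10.84 in the knockouts, a difference of -0.071 (SE 0.056), and it had the smallest spread within groups of all ribosomal protein genes (SD 0.020). Rpl7l1, a relative of Rpl7, read 8.20, 8.19 and 8.25 against 8.12, 7.93 and 8.15, with a difference of -0.150 (SE 0.072) that was -0.180 without knockout 1. Of the 34 ribosomal protein genes, the groups did not overlap in 3 with higher knockout values (Rplp0, Rps3 and Rps4x) and in these 2 with lower ones, against 4% and 6.69% of all genes. Among the 18 bright genes there were 3, all higher, against 8.03% of all genes above that level.

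Further dim members were Rps14, at -0.136 (7.82, 7.57 and 7.69 in wild type, 7.61, 7.59 and 7.46 in the knockouts), Rpl35a at -0.079, Rps29 at -0.078, Rps13 at -0.051, Rps15 at -0.028 and Rps20 at -0.018. In all of these the groups overlapped at the probe set with the highest mean. After median centring Rps15 and Rps20 turned to 0.004 and 0.014. Rpl32 had the widest spread within groups (SD 0.329), from 7.66 to 8.46 in wild type alone, and differed by -0.067. Rpl38, whose loss alters the translation of Hox messages in mouse embryos, differed by -0.022 (0.013 after cyclic loess). Rpl39, a small X-linked protein of the exit tunnel, differed by 0.052 and Rpl22 by 0.015. The lowest signals of the ribosomal protein genes were those of Rps15, Rpl39 and Rps20, at 6.56, 6.71 and 7.19. These lie at percentiles 10.9, 12.9 and 19.2 of mean signal, where a probe set may report little of its message.

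The 4 related genes are paralogs of core proteins. Rpl39l, the testis-enriched copy of Rpl39, differed by 0.011 with a 95% interval from -0.137 to 0.159, and Rps27l, a p53-induced relative of Rps27, by 0.066. Rps27l read 8.25 in knockout 1 but 8.54 and 8.46 in the other knockouts, against 8.33 to 8.36 in wild type. Rps4l, a relative of Rps4x, differed by 0.082 at its brighter probe set and by -0.028 at its dimmer one.

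The array pattern of the bright genes was shared by nearly all of them. Knockout 1 was the highest of the 6 arrays in 17 of the 18, against 25.6% of the other 978 genes above the 90th percentile, and wild type 3 was the lowest in 13, against 22.9%. In the top percentile knockout 1 was highest in 12 of the 13 ribosomal protein genes, against 37.3% of the 67 other genes. Wild type 3 was lowest there in 9, against 22.4%. Relative to each gene's mean over 6 arrays, the 18 bright genes had a median of 0.244 in knockout 1, -0.050 in knockout 2 and 0.009 in knockout 3, and of -0.061, 0.010 and -0.137 in wild type 1, 2 and 3. Knockouts 2 and 3 therefore lay within the range of the wild type arrays. The 16 other ribosomal protein genes did not follow this order: knockout 1 had a median of -0.017, wild type 3 one of 0.007, and knockout 3 was lowest at -0.084. Without knockout 1 the median difference of the bright genes was 0.050, with 16 of 18 higher, and the other genes above the 90th percentile had 0.011. Without wild type 3 it was 0.099. Without both arrays it was -0.005, with 8 of 18 higher. That pair was chosen after seeing the data as the highest and the lowest array, so a smaller difference follows from the choice.

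**Figure D3:**
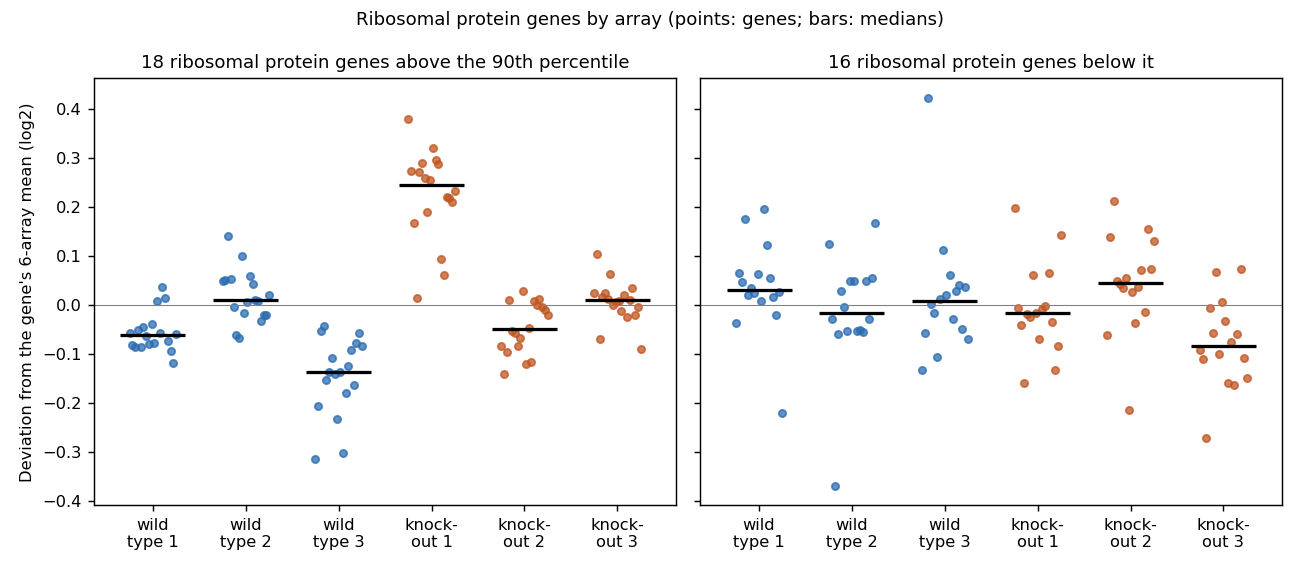
Deviation of each ribosomal protein gene from its own mean over 6 arrays (log2) by array, with the 18 genes above the 90th percentile of mean signal at left and the 16 below it at right, points for genes and bars for medians. At left all 18 genes lie above 0 in knockout 1 and below 0 in wild type 3, with medians of 0.244 and -0.137, and at right the medians stay between -0.084 and 0.045.

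Markers of dividing cells moved with the same arrays. Of 14 listed markers 13 were measured, of which 8 had the higher mean in the knockouts. The median difference was 0.075, a value that was 0.017 without knockout 1. Their median deviation was highest in knockout 1, at 0.248, and lowest in wild type 3, at -0.162, but wild type 1 stood at 0.099, where the bright ribosomal protein genes read -0.061. The summed linear signal of the 13 ran from 11931 to 14429 in wild type and from 13176 to 16120 in the knockouts. RMA gives no value of 0, and the dimmest of these markers lay at percentile 14.2 of mean signal. Hmgb2 (0.472) and Mad2l1 (0.316) were higher at an unadjusted p under 0.05 in limma and without overlap, and no marker was lower at that level. Over all genes 2.69% were higher and 2.53% lower at that level, and 4% were higher without overlap. None of the 13 markers passed after adjustment. Top2a and Mki67, defining genes of cycling cells, differed by -0.029 and -0.077. Glial markers (2 of 9 higher, median -0.083, or -0.004 without knockout 1) and markers of choroid plexus, blood, meninges and microglia (10 of 16 higher, median 0.050, or 0.016 without knockout 1) were the other cell type lists. At an unadjusted p under 0.05 in limma 1 of the 9 glial markers was lower and none higher. Of the 16 markers of the last list 2 were higher and none lower. None in either list passed after adjustment. The part that dividing cells, the Gapdh gap or anything else particular to knockout 1 had in the ribosomal protein values was not tested.

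Several genes had more than 1 probe set, and these often disagreed. Of 10 such genes, 4 had probe sets with differences of opposite sign, and in 5 the means lay over 2 apart on the log2 scale. Rps4x had 5 probe sets: the brightest, at 13.88, differed by 0.130, while the other 4, at 7.36 to 9.31, lay between -0.123 and -0.030. Rps28 read 14.86, 14.18 and 8.15 at 3 probe sets, with differences of 0.048, 0.110 and -0.139. Rpl7 read 13.40 and 7.41, with differences of 0.163 and 0.071, and Rpl19 read 13.38 and 10.71, with 0.157 and 0.032. Rps29 differed by -0.078 and -0.171 and Rpl38 by -0.022 and -0.186, both in the same direction. At the dimmer probe sets of Rps29 and Rpl38 the groups did not overlap. Over the 49 member probe sets this held for 4 with higher and 4 with lower knockout values, against 467 and 824 of all 12422. The 4 higher ones were Rplp0, Rps3, Rps4x and Snhg5, the last of which was chosen for its difference.

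The 2 probe sets named Rps24 lay 7.30 apart, at 14.65 and 7.36, with differences of 0.051 and -0.109. The brighter one carries the same sequence accession in the array annotation as a probe set named Rpl7, so its gene is uncertain. Of the 49 member probe sets, 15 have an identifier that marks probes shared between transcripts or picked under relaxed rules. A further 9 probe sets list a ribosomal protein gene together with a pseudogene or retrogene and were left out by the rule. Of those 9, 8 had a higher knockout mean, with a median of 0.092 and a range from -0.083 to 0.225, and knockout 1 was the highest array in 7.

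**Figure D4:**
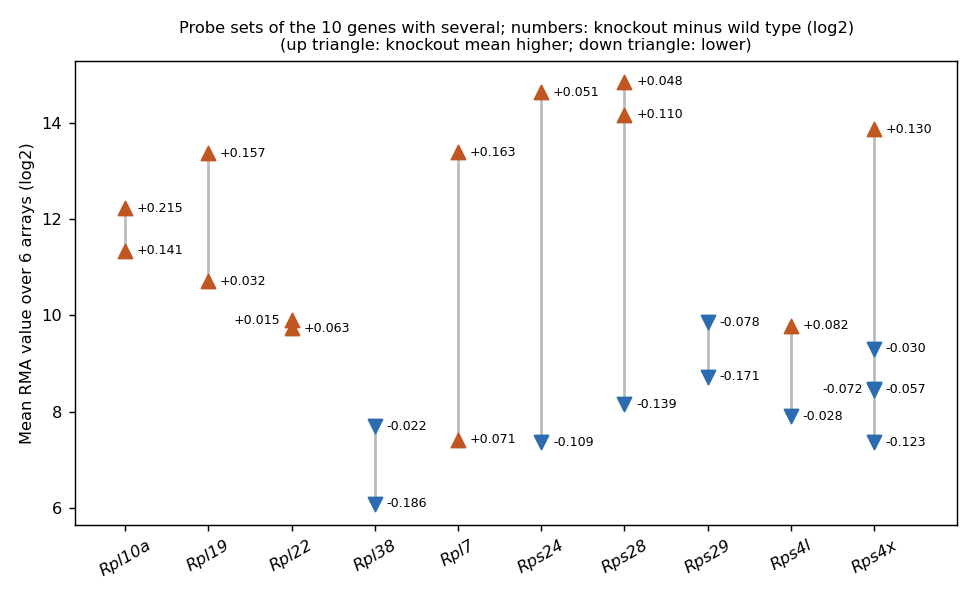
Mean RMA value over 6 arrays (log2) of every probe set of the 10 genes with several, with the knockout minus wild type difference (log2) printed beside each, orange triangles pointing up where the knockout mean was higher and blue triangles pointing down where it was lower. The highest and lowest probe sets of Rps24, Rps28, Rpl7, Rps4x and Rpl19 lie over 2 apart on this scale. In Rps24, Rps28, Rps4x and Rps4l the bright and the dim ones differ in sign.

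Other parts of the translation machinery were read from lists written with earlier results of these data known. Eukaryotic initiation factors, which bring the ribosome to the message, were higher in 22 of 29 genes, with a median of 0.090 that was 0.075 without knockout 1, and with 20 of 29 then higher. Their median deviation lay above 0 in all 3 knockouts (0.076, 0.026 and 0.045) and below 0 in all 3 wild type arrays (-0.068, -0.006 and -0.056). At an unadjusted p under 0.05 in limma 8 of the 29 were higher and none lower, beside the 2.69% and 2.53% of all genes given above, and none passed after adjustment (smallest adjusted p = 0.841). Eif4b, which aids the helicase that unwinds messages and is itself a TOP transcript, read 11.43, 11.33 and 11.28 in wild type and 11.64, 11.61 and 11.57 in the knockouts, without overlap, a difference of 0.26. Eif3e, a subunit of the scaffold factor eIF3, differed by 0.31, and Eif2s2, a subunit of the factor that brings the first transfer RNA, by 0.22. The 29 also held Eif4ebp1 (-0.059) and Eif4ebp2 (-0.073), the symbols of proteins that bind the factor eIF4E and are not initiation factors themselves.

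Elongation factors and other TOP-type translation genes were higher in 11 of 15, with a median of 0.094 that was 0.040 without knockout 1, and none had an unadjusted p under 0.05 in limma. Their array medians were 0.102, -0.024 and -0.012 in knockouts 1, 2 and 3. In wild type 1, 2 and 3 they were lower, at -0.047, -0.034 and -0.032. Btf3 and Naca, which form the complex that meets nascent chains at the ribosome, differed by 0.16 and 0.14. Eef2, the translocation factor, differed by 0.16. In each of them knockout 1 was the highest array, at 12.38, 13.02 and 13.08. Knockouts 2 and 3 read 11.99 and 12.02 in Btf3, 12.69 and 12.80 in Naca and 12.73 and 12.92 in Eef2. The wild type arrays read 11.93 to 12.01, 12.61 to 12.80 and 12.69 to 12.79. Rpsa, a small subunit protein whose symbol lies outside the rule, differed by 0.24. It read 11.03 in wild type 3 and 11.68 in knockout 1, its lowest and highest arrays. Fau, a fusion of a ubiquitin-like protein with a small subunit protein, differed by -0.059.

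Of 10 measured hosts of small nucleolar RNAs other than Snhg5, 7 were higher, with a median of 0.074, or 0.053 without knockout 1. Among these hosts Gnl3, Ncl and Nop56 are also counted with ribosome biogenesis and Eef1b2 with the elongation factors, so the lists are not separate. Snhg1 read 9.41, 9.60 and 9.28 in wild type and 9.60, 9.68 and 9.61 in the knockouts, a difference of 0.20 (SE 0.08). Wild type 2 and knockout 1 both read 9.60, so the groups overlapped. Epb41l4aos differed by 0.17 and Ncl, which encodes nucleolin, by 0.15. Ncl read 11.32 in knockout 1, and 10.98 and 11.19 in knockouts 2 and 3, against 10.97 to 11.10 in wild type. Genes of ribosome biogenesis and RNA polymerase I were higher in 17 and lower in 16 of 33 (median 0.001), and without knockout 1 higher in 14 (median -0.036), with Pes1, a factor of large subunit assembly, at 0.19, Nhp2, a protein of modification complexes, at 0.17 and Rrn3, an initiation factor of polymerase I, at 0.17.

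Mitochondrial ribosomal proteins, which build the separate ribosome of mitochondria, were higher in 35 of 61 (median 0.008), and without knockout 1 in 28 (median -0.002). Their highest arrays were wild type 2 (0.077) and knockout 1 (0.068), so they did not share the order of the cytosolic genes. Mrpl11 differed by 0.21, Mrps12 by -0.16 and Mrps34 by 0.14. Aminoacyl-tRNA synthetases were higher in 12 of 21 (median 0.032), and without knockout 1 in 9 of 21 (median -0.021), with Gars at 0.19, Iars at -0.15 and Farsa at -0.14. Of 16 genes of growth signalling to the ribosome 6 were higher and 10 lower (median -0.012, or -0.011 without knockout 1), with Max, the partner of Myc proteins, at -0.30, Mycn at 0.23 and Pik3r1 at -0.19. That list held Pdk1 (0.031), the symbol of a pyruvate dehydrogenase kinase, beside the signalling kinase Pdpk1 (-0.083). In all lists on translation and growth apart from the initiation factors the smallest adjusted p in limma was 0.897.

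**Figure D5:**
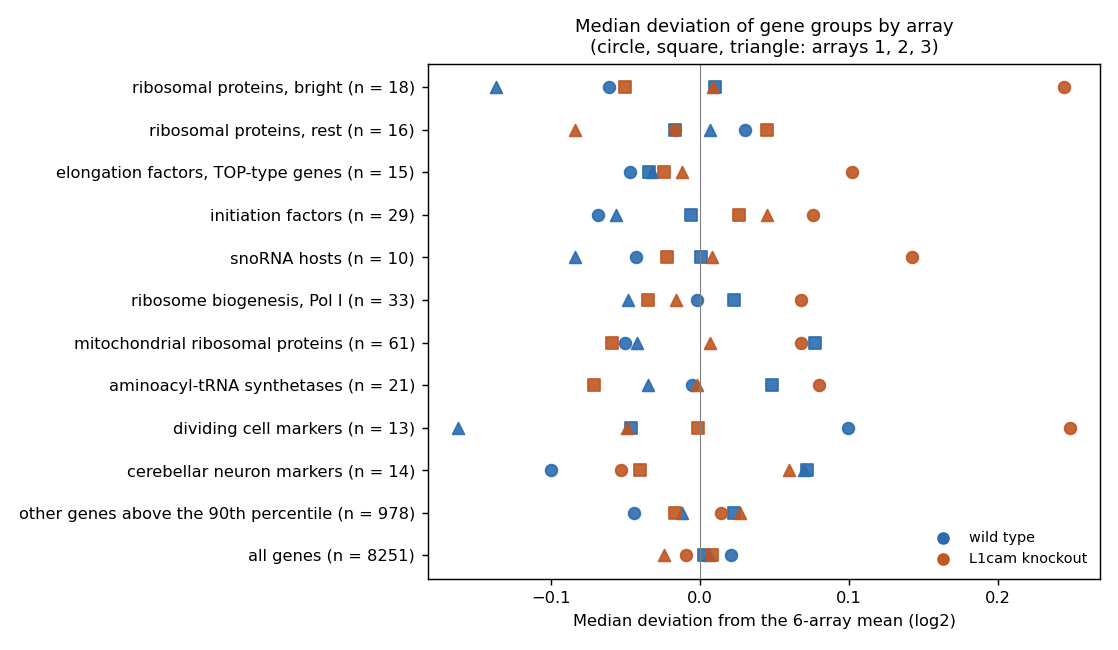
Median deviation from the mean of 6 arrays (log2) of 12 gene groups, with wild type in blue and L1cam knockout in orange and a marker shape for each array number. Knockout 1 stands to the right of all other arrays in the bright ribosomal proteins (0.244), the dividing cell markers (0.248), the small nucleolar RNA hosts (0.142), the TOP-type genes (0.102), the synthetases (0.080), the initiation factors (0.076) and the biogenesis genes (0.068). In the initiation factors and the TOP-type genes all 3 knockout arrays lie to the right of the 3 wild type arrays. The nearest TOP-type arrays are at -0.024 and -0.032. Some of the small nucleolar RNA hosts are also counted among the biogenesis or TOP-type genes.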

How the data were processed

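The authors hybridised cerebellar RNA to U74Av2 arrays, and the deposited values are log2 probe set summaries made with RMA, per the submitters' processing notes; the RMA version, its settings and the software were not given in the sources used here. RMA aligns the array distributions, which limits differences at the top of the scale. No scan date or batch was available to test.

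Of 12488 probe sets, 66 controls were left out. Names came from the array annotation: 10833 probe sets had 1 symbol, 396 several and 1193 none. Limma 3.58.1 (R 4.3.3, Python 3.11.15) fitted lmFit and eBayes to the 3 knockout and 3 wild type arrays over 12422 probe sets, with no covariate and Benjamini-Hochberg adjustment; differences are knockout minus wild type. The fit was tested on simulated data. The number of arrays limits the precision. All value columns matched a sample.

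The members and the 12 gene lists were chosen with earlier results of these data known, and ribosomal protein genes selected with Snhg5 give no independent support. Genes named were Snhg5, stalk and X-linked members, paralog pairs, the 8 highest and 8 lowest differences, the 4 largest and 4 smallest spreads within groups, the 3 highest and 3 lowest signals, genes whose probe sets disagreed, and the 3 largest differences of each list on translation. Exceptions are marked in the text. The alternatives were each array left out, a Gapdh 3' minus 5' covariate, array weights, cyclic loess, median centring, quantile normalization, keeping probe sets whose mean lay above the 40th percentile, a replicate block, trended robust variance, leaving out probe sets open to cross-hybridization, and averaging all probe sets of each gene; leaving out knockout 1 and wild type 3 together was added after seeing the data, as was the division at the 90th percentile.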

Additional observations from a re-analysis of the deposited data

How the results depend on the processing

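No member passed an adjusted p of 0.05 in limma under any of the 17 other settings, and leaving out each array in turn gave 0 to 1 calls over all probe sets, the 1 being without knockout 3. Member probe sets at an unadjusted p under 0.05, 5 as reported, numbered 2 with the Gapdh covariate, 16 with array weights, 2 after cyclic loess, 2 with the filter at the 40th percentile (which removes Snhg5), 3 after quantile normalization, and 2 to 10 with 1 array left out, 10 without knockout 2. The array weights were largest for wild type 3 and knockout 1. Leaving out 1 array gave a median difference over member genes of 0.018 to 0.076 with 21 to 29 higher, against 0.052 and 24, and 6 to 14 genes whose groups did not overlap (14 without knockout 2, 11 without wild type 2, against 6 with all arrays, Snhg5 counted). The bright genes then had medians of 0.050 to 0.219 with 16 to 18 higher. Without knockout 1 and wild type 3 together, chosen after seeing the data, the members' median was -0.021 with 13 higher, 1 probe set was at an unadjusted p under 0.05, 11 genes did not overlap, and the bright median was -0.005 with 8 higher. Median centring gave 28 of 35 members higher. The cause of these changes was not tested. A group of 2 arrays separates from the other group more readily than a group of 3. The counts without overlap in settings that leave out arrays are therefore not comparable with the 6. No share over all genes or probe sets stands beside the counts in these settings, so they are not read as results about the members. Snhg5 lay between 0.417 and 0.583 in every setting that kept it. Of the 28 named genes 14 kept their sign throughout.

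With the replicate number as a block, 5 member probe sets were at an unadjusted p under 0.05 in limma, as without it. Each number holds an array of each genotype, so the 24 higher genes and the median of 0.052 could not change. Same-numbered arrays did not deviate together (correlations 0.160, -0.316 and 0.169, with 2 arrays closest to their own number), so the numbers were not taken as pairs.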
